A study of Mus musculus with 9 samples.

Results

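The genes described are 9 costimulatory and tumour necrosis factor (TNF) family receptors of T cells: Cd28, Icos, Tnfrsf4, Tnfrsf9, Tnfrsf18, Tnfrsf1b, Tnfrsf25, Cd27 and Fas. They were chosen by name, and all 9 were found on the array, with 12 probes among 39429, which carried 19072 tested genes. RNA had been measured on 1-colour Agilent arrays in CD4+ T cells of BALB/c mice, and each of the naive, Th1 and Th17 groups had 3 arrays. Spleen and lymph node cells enriched for CD4 were given phorbol ester (PMA, 10 ng/ml) and ionomycin (500 ng/ml) for 3 h, agents that bypass the antigen receptor, and this was shared by all 3 groups. Naive cells were sorted as CD3+ CD4+ with high CD45RB and were selected on no cytokine. Th1 cells were CD3+ CD4+ with low CD45RB, captured by a secretion assay as positive for interferon gamma and negative for IL-17A. Th17 cells were the low CD45RB cells with the opposite pattern, positive for IL-17A and negative for interferon gamma. The Th1 and Th17 groups are therefore cells taken from the animal that secreted their cytokine after this stimulation, not cultures polarised in a dish. The labels give no unstimulated group, no age or sex, and nothing on whether the arrays of a group came from separate animals, so a p-value measures only the spread between these arrays.

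CD28 and ICOS are immunoglobulin-type receptors that add a second signal, largely through phosphoinositide 3-kinase, to that of the antigen receptor. The TNF receptor family members 4-1BB (Tnfrsf9), OX40 (Tnfrsf4), GITR (Tnfrsf18), CD27 and TNF receptor type II (Tnfrsf1b) bind TRAF adaptors and feed into NF-kappa-B, which supports survival and expansion. Fas and DR3 (Tnfrsf25) carry a death domain inside the cell. Naive T cells are known to carry CD28 and CD27, while ICOS, OX40 and 4-1BB are induced by activation.

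Promoter windows were looked at because Tnfrsf4 and Tnfrsf18, which are next to each other in the RefSeq gene order, went opposite ways in Th17 cells, because Tnfrsf9 differed between its probes, and because Fas fell in both groups. RefSeq windows (build GRCm38.p6) were held for 7 of the 9 receptors, 9 windows in all, and Cd28 and Icos were not among them. The 250 bases before each start were searched on both strands for an NF-kappa-B type motif (GGG and CC with any 5 bases between them), an AP-1 type motif (TGANTCA) and the NFAT core (TGGAAA). The windows below lie on the + strand, read 5′ to 3′, stop where the annotated gene begins, and have every match in capitals. They are Tnfrsf4 at chr4:156013445-156013594, Tnfrsf18 at chr4:156026072-156026321, Tnfrsf9 at chr4:150919905-150920154 and Fas at chr19:34290409-34290646.
Tnfrsf4: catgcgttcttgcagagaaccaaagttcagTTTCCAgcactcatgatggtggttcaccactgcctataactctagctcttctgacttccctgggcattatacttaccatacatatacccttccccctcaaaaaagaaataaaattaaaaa
Tnfrsf18: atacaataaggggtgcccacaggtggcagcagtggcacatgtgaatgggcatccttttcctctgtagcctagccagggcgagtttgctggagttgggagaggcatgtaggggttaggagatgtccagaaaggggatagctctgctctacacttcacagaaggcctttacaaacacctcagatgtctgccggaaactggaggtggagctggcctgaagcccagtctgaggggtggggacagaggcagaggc
Tnfrsf9: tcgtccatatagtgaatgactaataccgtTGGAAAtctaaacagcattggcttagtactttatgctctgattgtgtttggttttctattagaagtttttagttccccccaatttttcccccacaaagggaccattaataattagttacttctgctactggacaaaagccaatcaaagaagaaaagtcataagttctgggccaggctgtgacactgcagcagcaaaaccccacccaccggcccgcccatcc
Fas: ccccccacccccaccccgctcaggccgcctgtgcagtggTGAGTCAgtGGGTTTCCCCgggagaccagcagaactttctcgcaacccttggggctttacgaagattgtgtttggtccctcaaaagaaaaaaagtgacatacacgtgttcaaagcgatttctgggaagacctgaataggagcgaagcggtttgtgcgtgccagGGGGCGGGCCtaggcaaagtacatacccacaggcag
The Tnfrsf18 window held no match to any of the 3 motifs. The Tnfrsf4 window held 1 NFAT core, as did the upstream window of Tnfrsf9, and 18.6% of all 32851 promoter windows held that core. The Fas window held an AP-1 type match, TGAGTCA, a motif found in 6.75% of all windows, and 2 separate NF-kappa-B type matches. The NF-kappa-B type motif was in 6 of the 9 receptor windows, those of Cd27, Fas, Tnfrsf1b and Tnfrsf25 and 1 of the 2 Tnfrsf9 windows. It is loose enough to occur in 45.8% of all windows. No match of 1 motif overlapped a match of another. A match is a run of letters and was not tested as a binding site.

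Levels are given as log2 of the processed spot signal after the 75th percentile of the array was subtracted, so that 0 is that percentile and 1 unit is a doubling. Because probes differ in brightness, a level is compared between groups of 1 gene and never between genes. A gene is called changed where limma gave an adjusted p below 0.05 over all genes tested, and changes are followed by their standard error. All 12 receptor probes were well above background on 9 of 9 arrays. Between 53.4% and 58.3% of the probes of an array were well above background. The arrays lay on 3 slides: slide 1 held all naive arrays and Th1 replicate 1, slide 2 held Th1 replicates 2 and 3 and Th17 replicates 1 and 2, and slide 3 held Th17 replicate 3. Naive and Th17 arrays never shared a slide, so for that comparison slide and group could be separated only through the Th1 arrays. Cd3e and Cd4, defining T cell genes, were well above background on every array.

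**Figure D1:**
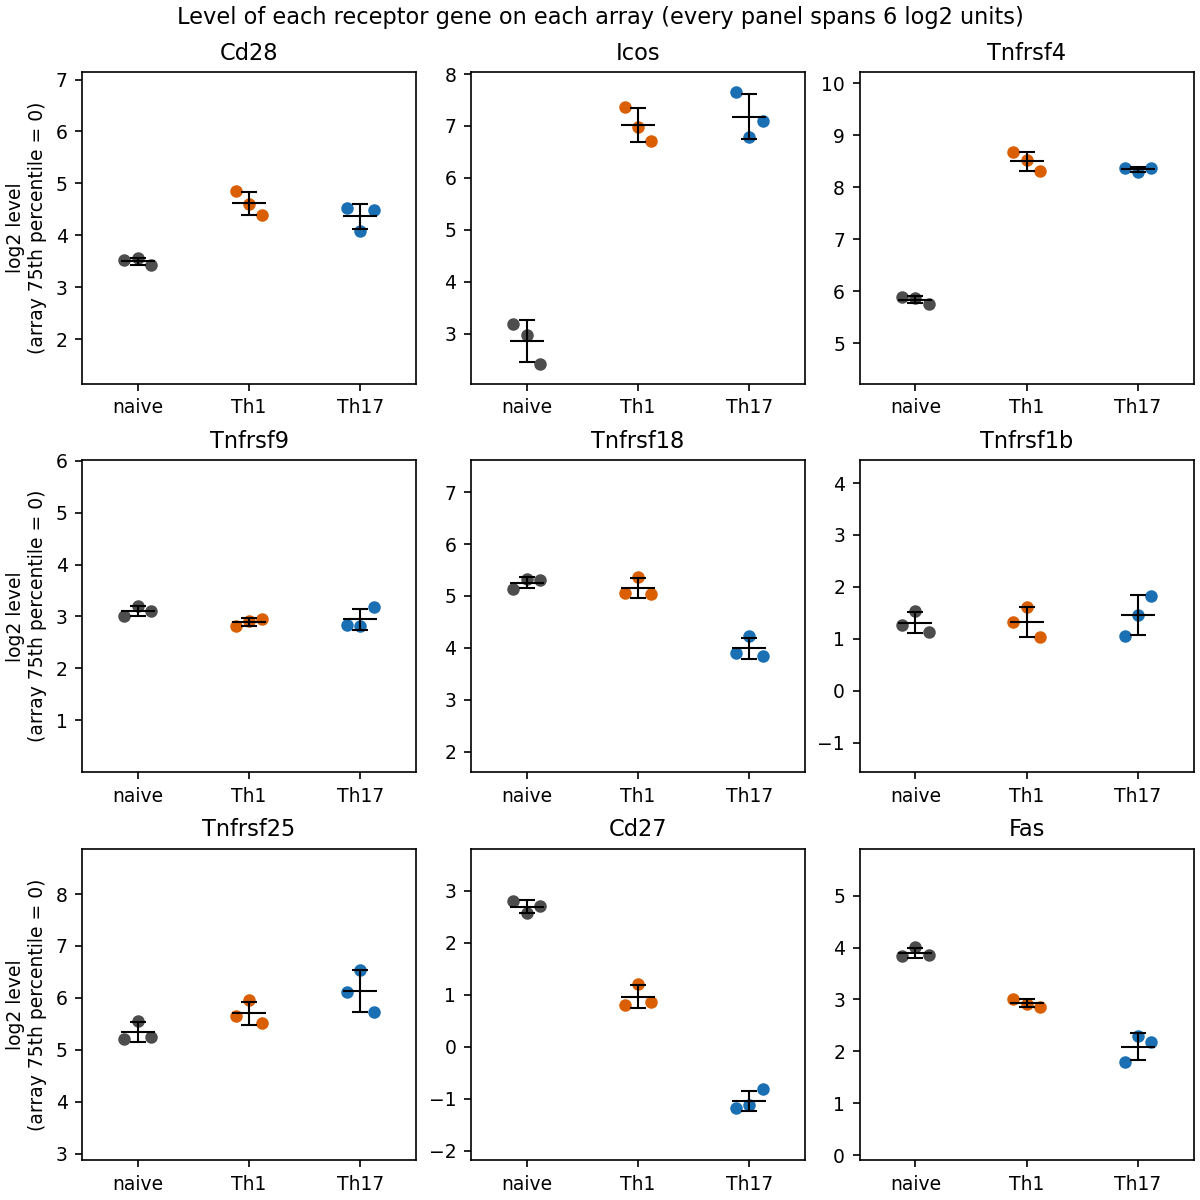
Log2 level of each of the 9 receptor genes on each array (points), with the mean (long bar) and SD (whiskers) of the 3 arrays of naive (grey), Th1 (orange) and Th17 (blue) cells. Panels share a span of 6 log2 units and start at different values; Icos and Tnfrsf4 sit higher in both cytokine-producing groups, Cd27 and Fas step down from naive to Th1 to Th17, and Tnfrsf18 is low in Th17 cells alone.

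Cd28, the receptor for CD80 and CD86 and the classical source of the second signal, was moderately higher in both cytokine-producing groups. Its level was 3.52, 3.56 and 3.43 in naive cells, 4.85, 4.60 and 4.39 in Th1 cells and 4.52, 4.08 and 4.49 in Th17 cells. Every Th1 and Th17 array was above every naive array, and the Th1 and Th17 arrays overlapped. Cd28 rose by 1.11 ± 0.16 in Th1 cells, 2.16-fold (adjusted p = 0.00055), and by 0.86 ± 0.16 in Th17 cells, 1.82-fold (adjusted p = 0.00199). The Th17 level differed from the Th1 level by -0.25 (95% interval -0.61 to 0.11, adjusted p = 0.328). In sorted bulk cells, more cells carrying a transcript and more transcript per cell cannot be told apart, here and in all results that follow.

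Icos, a receptor of the same family that binds ICOS ligand and is known for its part in B cell help, had the largest change of the 9 by the probe that stood for each gene. Its brighter probe read 3.19, 2.97 and 2.42 in naive cells, 7.36, 6.98 and 6.71 in Th1 cells and 7.65, 6.79 and 7.10 in Th17 cells. The naive arrays were far below all others, and Th1 and Th17 arrays overlapped. The rise was 4.15 ± 0.28 in Th1 cells, 17.8-fold (adjusted p = 1.06e-05), and 4.32 ± 0.28 in Th17 cells, 19.9-fold (adjusted p = 8.32e-06). The difference between Th17 and Th1 was 0.17 (95% interval -0.47 to 0.81, adjusted p = 0.729). The dimmer Icos probe rose by 4.53 and 4.72, slightly more than the brighter one. Icos therefore rose several times more than Cd28 in either group, while neither gene was called between Th1 and Th17 cells.

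Ctla4, the inhibitory receptor for the CD28 ligands, lies between Cd28 and Icos in the RefSeq order of genes. Its mean was -2.92 ± 0.45 (SD, n = 3) in naive, 4.51 ± 0.65 in Th1 and 3.86 ± 0.47 in Th17 cells. All 3 genes of this stretch were thus called higher in both groups, with Ctla4 at 7.43 in Th1 and 6.78 in Th17 cells (adjusted p = 2.42e-06 and 3.75e-06).

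Tnfrsf4, the OX40 receptor, was bright in every group and higher still in the cytokine-producing cells. It read 5.88, 5.87 and 5.76 in naive cells, 8.67, 8.52 and 8.31 in Th1 cells and 8.37, 8.29 and 8.38 in Th17 cells. The 3 Th17 arrays lay inside the range of the Th1 arrays apart from 1 at 8.29, and both groups were well clear of naive cells. Tnfrsf4 rose by 2.67 ± 0.11 in Th1 cells, 6.35-fold (adjusted p = 8.97e-07), and by 2.51 ± 0.11 in Th17 cells, 5.7-fold (adjusted p = 1.44e-06). Between Th17 and Th1 the difference was -0.16 (95% interval -0.41 to 0.10, adjusted p = 0.387).

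Tnfrsf18, the GITR receptor, is the neighbour of Tnfrsf4 and did not follow it. Its level was 5.14, 5.33 and 5.30 in naive cells, 5.05, 5.37 and 5.03 in Th1 cells and 3.90, 4.22 and 3.85 in Th17 cells. Naive and Th1 arrays overlapped, and every Th17 array lay below all of them. Against naive cells the Th1 level differed by -0.11 (95% interval -0.43 to 0.22, adjusted p = 0.552), a sign that turned to 0.09 with quantile normalization and to 0.04 with a 75th percentile over only the probes that every array scored above background. In Th17 cells Tnfrsf18 fell by 1.27 against naive cells (SE 0.14, adjusted p = 0.000141) and by 1.16 against Th1 cells (adjusted p = 0.00112). On slide 2 alone, which held both groups, the Th17 to Th1 difference was -1.14 (adjusted p = 0.0466). In the same Th17 RNA, Tnfrsf4 was thus above and Tnfrsf18 below its naive level.

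Tnfrsf9, the 4-1BB receptor, gave different answers by probe. Both of its probes are assigned to the same RefSeq transcript. The brighter probe read 3.00, 3.20 and 3.11 in naive cells, 2.81, 2.91 and 2.96 in Th1 cells and 2.83, 2.82 and 3.18 in Th17 cells, a nearly flat series in which Th1 lay just under naive. The dimmer probe read -1.33, -1.46 and -1.19 in naive cells, 2.83, 2.70 and 2.45 in Th1 cells and 2.44, 2.16 and 2.49 in Th17 cells, with the naive arrays far below the rest. By the brighter probe the changes were -0.21 in Th1 (adjusted p = 0.183) and -0.16 in Th17 cells (adjusted p = 0.305). By the dimmer probe Tnfrsf9 rose by 3.98 ± 0.14 in Th1 cells, 15.8-fold (adjusted p = 3.62e-07), and by 3.69 ± 0.14 in Th17 cells, 12.9-fold (adjusted p = 6.88e-07). Neither probe was called between Th17 and Th1 cells, at 0.05 (adjusted p = 0.812) and -0.29 (adjusted p = 0.204).

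The disagreement was itself fitted over the 3290 genes with 2 or more kept probes, a step chosen after it had been seen. The dimmer Tnfrsf9 probe changed by 4.19 ± 0.16 more than the brighter one in Th1 against naive cells (adjusted p = 1.66e-05), the fifth largest gap, where 19.4% of these genes were called. Against naive the Th17 gap was 3.84 ± 0.16 (adjusted p = 2.29e-05), with 23.2% of genes called. The probes of Icos differed by 0.38 and 0.40 in these comparisons, and those of Cd27 by 0.01 and 0.02. Which Tnfrsf9 probe follows the full receptor transcript was not tested, and the brighter one is used in the counts below only because the same rule was applied to every gene.

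**Figure D2:**
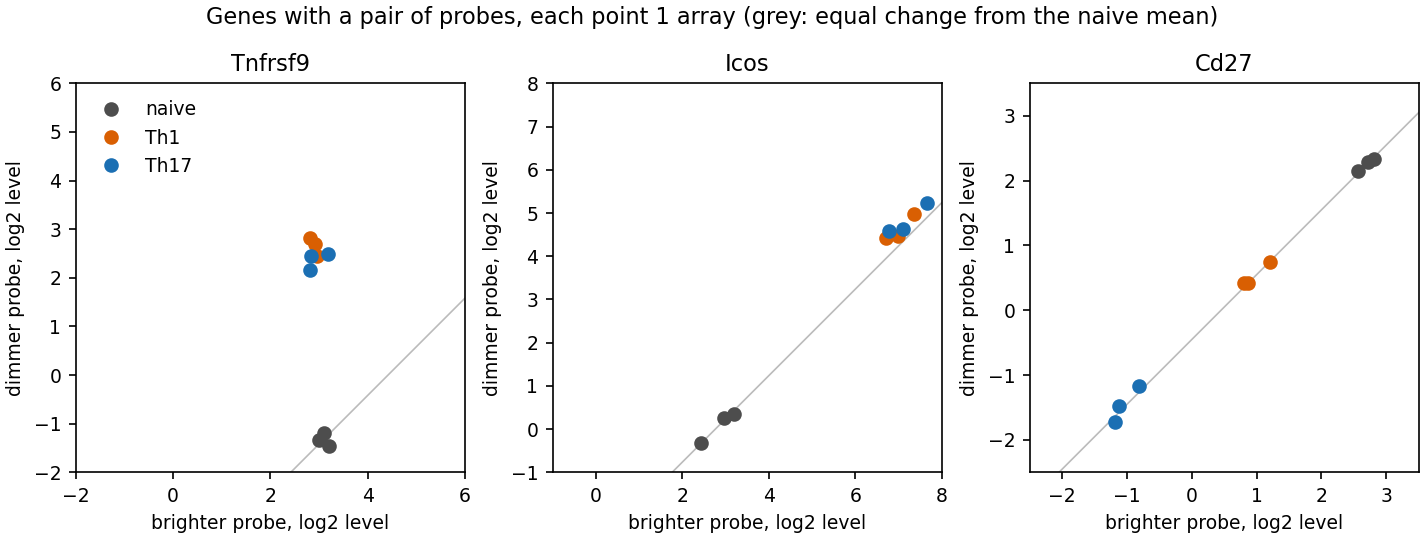
Log2 level of the dimmer probe against the brighter probe of Tnfrsf9, Icos and Cd27, each point 1 array (grey naive, orange Th1, blue Th17), with a grey line of equal change drawn through the naive mean. Icos and Cd27 arrays lie along or close to the line, while the Tnfrsf9 Th1 and Th17 arrays lie above it by 4.19 and 3.84 log2 units on average.

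Tnfrsf1b, the TNF receptor that lacks a death domain, was at like levels in the 3 groups. It read 1.26, 1.53 and 1.14 in naive cells, 1.33, 1.61 and 1.04 in Th1 cells and 1.06, 1.46 and 1.83 in Th17 cells, and all 3 groups overlapped. The difference from naive cells was 0.02 in Th1 (95% interval -0.49 to 0.53, adjusted p = 0.953) and 0.14 in Th17 cells (95% interval -0.37 to 0.65, adjusted p = 0.616). The intervals leave room for changes in either direction, and the sign of each difference turned when single arrays were left out.

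Cd27, the receptor for CD70, is carried by naive T cells and can be lost on effector cells. It read 2.81, 2.57 and 2.71 in naive cells, 0.81, 1.21 and 0.87 in Th1 cells and -1.18, -1.12 and -0.82 in Th17 cells. The 3 groups formed 3 separate steps with no overlap. Cd27 fell by 1.74 in Th1 cells (SE 0.15, 3.33-fold, adjusted p = 3.61e-05) and by 3.74 in Th17 cells (SE 0.15, 13.3-fold, adjusted p = 9.05e-07). The step from Th1 to Th17 was -2.0 ± 0.15, 4-fold (adjusted p = 8.09e-05), and -2.19 on slide 2 alone (adjusted p = 0.00801). The dimmer probe gave -1.72, -3.72 and -1.99 for the same 3 comparisons. Genes that mark naive T cells were lower in the groups in which Cd27 fell: 6 of the 7 listed, Ccr7 and Klf2 among them, were called lower in each group, and their summed signal, in multiples of the array's 75th percentile, ran from 251 to 307 in naive, 77.1 to 101 in Th1 and 57.8 to 74.4 in Th17 cells. Of all genes 30.3% were called lower in Th1 and 30.1% in Th17 cells, and 7.69% lower and 8.04% higher from Th1 to Th17. From Th1 to Th17 cells 2 of the 7 naive markers were lower, and 4 were not called. Satb1 was higher there (1.52, adjusted p = 0.00486). Without Ccr7, the brightest of the 7, the sums were 93.8 to 122, 24 to 32.7 and 42.2 to 67, so that Th1 and not Th17 cells were then lowest. All 7 were well above background on 9 of 9 arrays, and their part in the Cd27 result was not tested.

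Fas, the death receptor for FAS ligand that removes repeatedly stimulated T cells, also stepped down. It read 3.83, 4.01 and 3.85 in naive cells, 3.01, 2.92 and 2.85 in Th1 cells and 1.80, 2.29 and 2.19 in Th17 cells. Again the 3 groups did not overlap, and naive cells were highest. Fas fell by 0.97 in Th1 cells (SE 0.14, 1.96-fold, adjusted p = 0.000582) and by 1.80 in Th17 cells (SE 0.14, 3.48-fold, adjusted p = 1.98e-05). Between Th17 and Th1 the difference was -0.83 ± 0.14 (adjusted p = 0.00554), and it was -0.83 on slide 2 alone, where it was not called (adjusted p = 0.0958).

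Tnfrsf25, the death domain receptor DR3 for the ligand TL1A (Tnfsf15), was called in 1 comparison only. It read 5.21, 5.56 and 5.24 in naive cells, 5.65, 5.95 and 5.52 in Th1 cells and 6.11, 6.54 and 5.73 in Th17 cells. Th17 arrays were all above the naive arrays, and Th1 arrays overlapped with both groups. It rose by 0.79 ± 0.21 in Th17 against naive cells, 1.73-fold (adjusted p = 0.014), a call that ended with slide as a fixed block (0.91, adjusted p = 0.0989). In Th1 cells it was at 0.37 ± 0.21 (adjusted p = 0.176), and between Th17 and Th1 at 0.41 (adjusted p = 0.235). The death domain receptors Fas and Tnfrsf25 thus went opposite ways in Th17 cells.

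**Figure D3:**
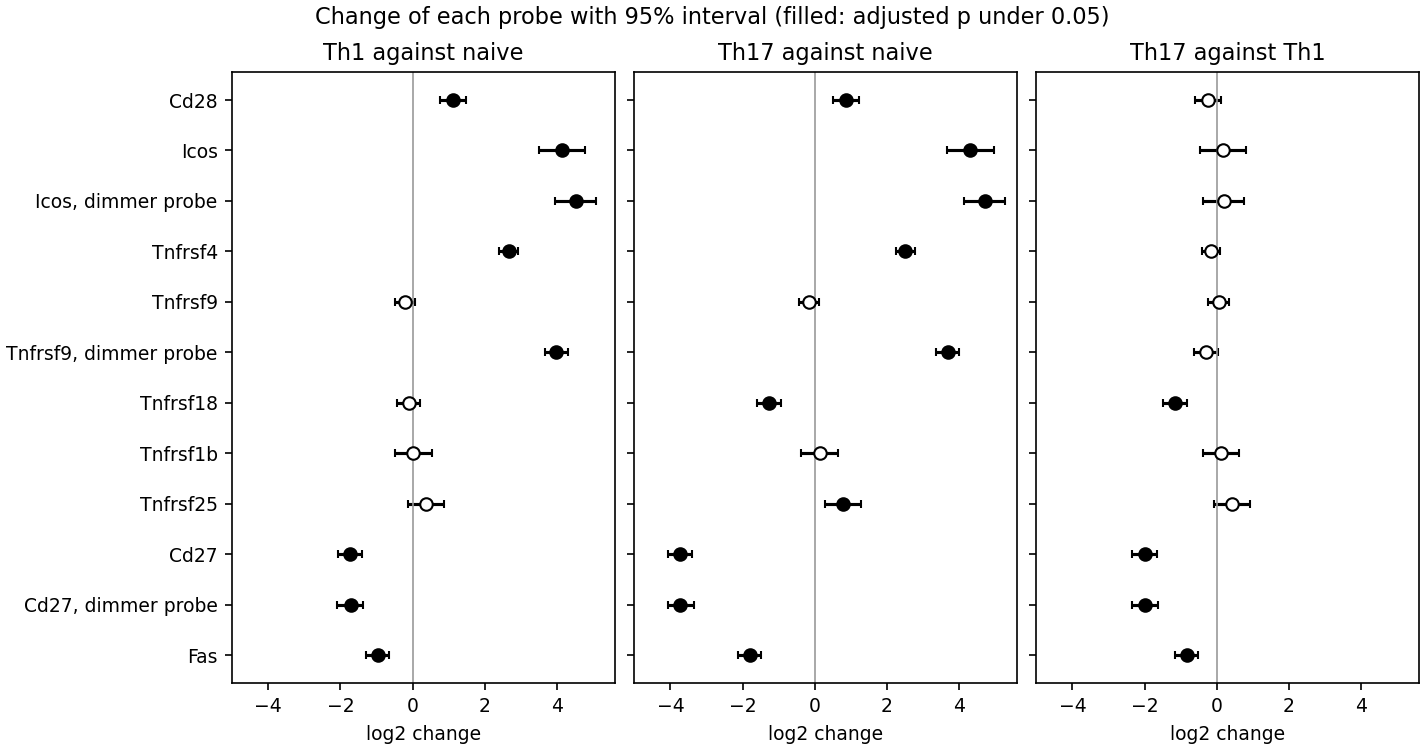
Log2 change of each of the 12 receptor probes with its 95% interval (bars) for both cytokine-producing groups against naive cells and for Th17 against Th1 cells; filled points have a limma adjusted p below 0.05. In the last panel only Tnfrsf18, Fas and both Cd27 probes are filled, all to the left of 0.

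Counted over the set, 5 of the 9 receptors were called in Th1 against naive cells, Cd28, Icos and Tnfrsf4 higher and Cd27 and Fas lower. In that comparison 53.9% of all genes tested were called, 23.5% higher and 30.3% lower, so the count of receptors was near the background and says little about the set. The arrays of the groups did not overlap for 6 of 9 receptors and for 65.3% of all genes. Changes of at least 1 log2 unit were called for 4 of 9 receptors and 20.7% of genes, and the median absolute change was 0.97 for the receptors and 0.50 for all genes. The median signed change was 0.02 for the receptors and -0.09 for all genes. When the 75th percentile was taken over only the probes that every array scored above background, the all-gene median shifted by 0.15 and the calls went from 4486 higher and 5786 lower to 5452 higher and 4431 lower, with the same 3 and 2 receptor calls. On slide 1 alone, which set 1 Th1 array against the 3 naive arrays, Cd28 was at 1.35, Icos at 4.49, Tnfrsf4 at 2.84, Cd27 at -1.89 and Fas at -0.88. These are values of a single Th1 array, whose own spread was not measured.

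In Th17 against naive cells 7 of 9 were called: Cd28, Icos, Tnfrsf4 and Tnfrsf25 higher, and Tnfrsf18, Cd27 and Fas lower. Of all genes 54.2% were called, 24.1% higher and 30.1% lower. Groups did not overlap for 7 of 9 receptors and 63.4% of genes, and changes of at least 1 log2 unit were called for 5 receptors and 22.2% of genes. The median absolute change was 1.27 for the receptors and 0.51 for all genes. With slide as a fixed block 6 receptors were called, Tnfrsf25 being lost. These comparisons share the naive arrays, so their likeness is not an independent result.

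Between Th17 and Th1 cells 3 of 9 were called, all lower in Th17 cells: Tnfrsf18, Cd27 and Fas. Of all genes 15.7% were called, 7.69% lower and 8.04% higher. Groups did not overlap for the same 3 receptors and for 35.2% of genes, and a called difference of at least 1 log2 unit was seen for 2 receptors and 6.42% of genes. The median absolute difference was 0.25 for the receptors and 0.24 for all genes. By the mean of the probes of each gene, which takes in the dimmer Tnfrsf9 probe, the counts were 6, 8 and 3.

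Markers of regulatory T cells, which carry ICOS, OX40, GITR and 4-1BB at high levels, moved with the groups in which Icos and Tnfrsf4 rose. The GITR gene Tnfrsf18 did not rise there, at -0.11 in Th1 (adjusted p = 0.552) and -1.27 in Th17 cells (adjusted p = 0.000141). Tnfrsf9 rose by its dimmer probe only. Foxp3, the factor that defines the regulatory T cell lineage, read -2.48, -2.54 and -2.54 in naive cells, 1.04, 1.93 and 1.37 in Th1 cells and 0.64, 0.81 and 0.47 in Th17 cells. Of all genes 23.5% were called higher and 30.3% lower in Th1 cells, and 24.1% and 30.1% in Th17 cells. Between Th17 and Th1 cells the shares were 8.04% higher and 7.69% lower. Of the 9 regulatory T cell markers tested, 8 were called higher in Th1 cells, and 6 higher and 1 lower in Th17 cells. In Th17 against Th1 cells 1 of these markers was higher and 5 were lower. Their summed signal ran from 48.8 to 56.1 in naive, 86.3 to 130 in Th1 and 125 to 155 in Th17 cells. Most of that sum was Il2ra, the IL-2 receptor alpha chain and the marker higher in Th17 than in Th1 cells. Without Il2ra the other 8 summed to 2.02 to 3.31 in naive, 28.2 to 36.4 in Th1 and 9.86 to 13.7 in Th17 cells, so Th1 cells were then highest. Foxp3 was well above background on all 9 arrays, and the part of these markers in the receptor results was not tested.

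Other marker lists are given as sums for naive, Th1 and Th17 arrays in that order. Their counts stand beside 23.5% of all genes called higher and 30.3% lower in Th1 cells, and 24.1% and 30.1% in Th17 cells. For Th17 against Th1 cells the shares were 8.04% higher and 7.69% lower. The B cell genes Cd79b, Ms4a1, Pax5 and Blk were above background on no array, nor were Cd8a or the natural killer genes Ncr1 and Klrb1c. The 9 B cell genes summed to 0.557 to 0.729 in naive, 1.06 to 1.34 in Th1 and 0.925 to 1.13 in Th17 cells, and of the 4 that could be tested only Cd22 was called. Without Cd22 the other 8 summed to 0.206 to 0.277, 0.206 to 0.328 and 0.197 to 0.257. The 4 follicular helper genes Cxcr5, Bcl6, Il21 and Sh2d1a summed to 11.1 to 12.5, 47.1 to 87 and 74.5 to 119, and all 4 were called higher in Th1 cells, with 2 higher and 1 lower in Th17 cells. In Th17 against Th1 cells none was called higher, and Cxcr5 (-2.33, adjusted p = 0.000795) and Sh2d1a (-1.39, adjusted p = 0.00273) were lower. Without Il21, which carried most of the sum, the other 3 summed to 8.25 to 9.41, 23.1 to 24 and 15 to 17.4. Follicular helper cells are known for high ICOS, and the part of these 4 genes in the Icos result was not tested. The 10 myeloid and dendritic genes summed to 180 to 186, 203 to 234 and 205 to 236, most of it from Siglech, at 7.34 to 7.75 (log2), and with Flt3 above background on no array. Without Siglech the other 9 summed to 17.2 to 17.5, 26 to 32.2 and 20.3 to 30.9. Of the 7 tested, 2 were called higher and 1 lower in Th1 cells, and 2 higher and 2 lower in Th17 cells. These counts were near the background. Higher were Itgam in both (1.07 and 0.79), Xcr1 in Th1 (at least 2.54-fold) and Cd14 in Th17 cells (3.05). Lower were Csf1r in both (-0.72 and -0.78) and Zbtb46 in Th17 cells (-0.65). The 2 CD8 T cell genes summed to 0.576 to 0.686, 0.0644 to 0.0748 and 0.0546 to 0.0757. Without Cd8b1, Cd8a alone stood at 0.00568 to 0.0135, 0.006 to 0.00885 and 0.00674 to 0.00771. The 5 natural killer genes summed to 0.649 to 1.01, 0.254 to 0.529 and 0.0317 to 0.0745. Without Eomes, the brightest of them and the only 1 tested, the other 4 summed to 0.0285 to 0.119, 0.0214 to 0.0319 and 0.0218 to 0.0408. Zbtb16, a gene of invariant natural killer T cells, stood at 0.0319 to 0.0396, 0.0588 to 0.0832 and 0.192 to 0.283. The 3 gamma-delta T cell genes with a probe summed to 1.59 to 1.77, 1.08 to 1.28 and 1.07 to 1.57, mostly from Sox13. Sox13 was called lower in Th1 (-0.58, adjusted p = 0.0063) and in Th17 cells (-0.54, adjusted p = 0.00853). Cd163l1, a scavenger receptor gene of gamma-delta T cells, was above background on the 3 Th17 arrays only, at least 6-fold higher than in naive and at least 5.64-fold higher than in Th1 cells (adjusted p = 4.31e-05 and 0.000236). The 4 T cell genes with a probe summed to 46.4 to 52.5, 93.8 to 123 and 71.4 to 80.3. In Th1 cells 3 were called higher and in Th17 cells 2, with Cd3e among them in both (2.20 and 1.62). Cd3d was called in neither group (0.33, adjusted p = 0.0661, and -0.05, adjusted p = 0.76). Cd4 was not called in Th17 cells (0.36, adjusted p = 0.0606). The part of these lists in the receptor results was not tested.

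Of the 11 ligands of these receptors, 10 could be tested in the same cells. In Th1 against naive cells 6 were called higher and 1 lower, with a median of 0.84. In Th17 cells 3 were called higher and 3 lower, with a median of -0.10 that turned to 0.20 without naive replicate 3. With slide as a fixed block 2 were higher and 1 lower there. Set against Th1 cells, Th17 cells had 1 higher and 3 lower, with a median of -0.23. The medians of all genes were -0.09, -0.09 and 0.00. Of all genes 23.5% were called higher and 30.3% lower in Th1 cells, and 24.1% and 30.1% in Th17 cells. Between Th17 and Th1 cells the shares were 8.04% higher and 7.69% lower. The ligand counts of Th17 against naive cells were thus near the background.

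Cd70, the ligand of CD27, read -6.95, -7.13 and -6.70 in naive cells, where it was not well above background, then -1.31, -0.95 and -0.49 in Th1 cells and -3.45, -2.22 and -1.43 in Th17 cells. Under the main background subtraction it was at least 19.1-fold higher in Th1 and at least 6.98-fold higher in Th17 than in naive cells (adjusted p = 1.93e-05 and 7.72e-05). The ligand was thus highest in Th1 cells by mean, while its receptor Cd27 fell in each of the same groups. The bound sets the bright group's mean against the dimmest signal that an array still scored above background. Such bounds, here and elsewhere, hold only under that subtraction. Over the alternatives the smallest Cd70 changes were 2.39 (log2) in Th1 and 1.39 in Th17 cells, and 1 alternative lost the Th17 call.

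Tnfsf9, the 4-1BB ligand, read -2.04, -2.19 and -1.57 in naive cells, 0.99, 0.98 and 0.88 in Th1 cells and 1.22, 1.28 and 1.51 in Th17 cells. It rose by 2.88 in Th1 (adjusted p = 4.18e-06) and by 3.27 in Th17 cells (adjusted p = 2.4e-06), and the groups did not overlap. Tnfsf4, the OX40 ligand, read -2.23, -2.30 and -1.99 in naive cells, -0.46, -1.26 and -0.88 in Th1 cells and -3.54, -4.01 and -4.59 in Th17 cells. Th1 arrays were above naive arrays and Th17 arrays below them. Tnfsf4 rose by 1.31 in Th1 cells (adjusted p = 0.00493) and differed by -3.18 between Th17 and Th1 cells (adjusted p = 0.00021). Its fall of -1.88 from naive to Th17 cells was not called with slide as a fixed block (-0.99, adjusted p = 0.0712). Its receptor Tnfrsf4 was high in both groups, so ligand and receptor differed in pattern.

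Fasl, the FAS ligand, read 2.06, 1.93 and 2.23 in naive cells, 2.77, 2.98 and 2.67 in Th1 cells and 1.54, 1.53 and 1.12 in Th17 cells. It rose by 0.74 in Th1 cells (adjusted p = 0.00377) and was at -1.41 in Th17 against Th1 cells (adjusted p = 0.000574). Th17 cells therefore had the lowest reading of both Fas and Fasl, although the Th17 to naive difference of Fasl (-0.67) was not called with slide as a fixed block (-0.59, adjusted p = 0.114).

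The CD28 ligand Cd86, usually made by antigen-presenting cells, read -5.19, -4.93 and -2.32 in naive cells, -0.75, -0.52 and -1.08 in Th1 cells and -5.62, -5.15 and -4.60 in Th17 cells. Only 1 of 3 naive and 2 of 3 Th17 arrays were well above background. The Th17 arrays all lay below the Th1 arrays (difference -4.34, adjusted p = 0.00415). The rise from naive to Th1 cells was 3.36 (adjusted p = 0.00352), and 3.39 with slide as a fixed block (adjusted p = 0.0457). The other CD28 ligand, Cd80, was at 0.88 in Th1 (adjusted p = 0.000594) and 0.47 in Th17 cells (adjusted p = 0.0128; with slide as a fixed block, 0.0582).

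Icosl, the ICOS ligand, was above background in all 3 naive arrays and in no Th1 or Th17 array. Under the main background subtraction it was at least 2.69-fold lower in Th1 cells (adjusted p = 0.00051) and at least 3.45-fold lower in Th17 cells (adjusted p = 0.000853). The Th17 call ended with slide as a fixed block (adjusted p = 0.0679) and with normexp and extreme local backgrounds replaced, where the change shrank from -2.83 to -0.40 (adjusted p = 0.125). Under the main background subtraction Icosl and its receptor Icos thus went opposite ways in Th1 cells. With normexp the Th1 change of Icosl was 0.29. Tnf, the cytokine that binds Tnfrsf1b, was bright in all groups, at 5.85 ± 0.39, 5.64 ± 0.41 and 6.52 ± 0.17 (SD, n = 3), and its Th17 to Th1 difference of 0.88 (adjusted p = 0.0485) was not called without any 1 of the 6 arrays. Lta and Tnfsf15 were called in no comparison, and Tnfsf18, the GITR ligand, was well above background on 1 array and was not tested.

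**Figure D4:**
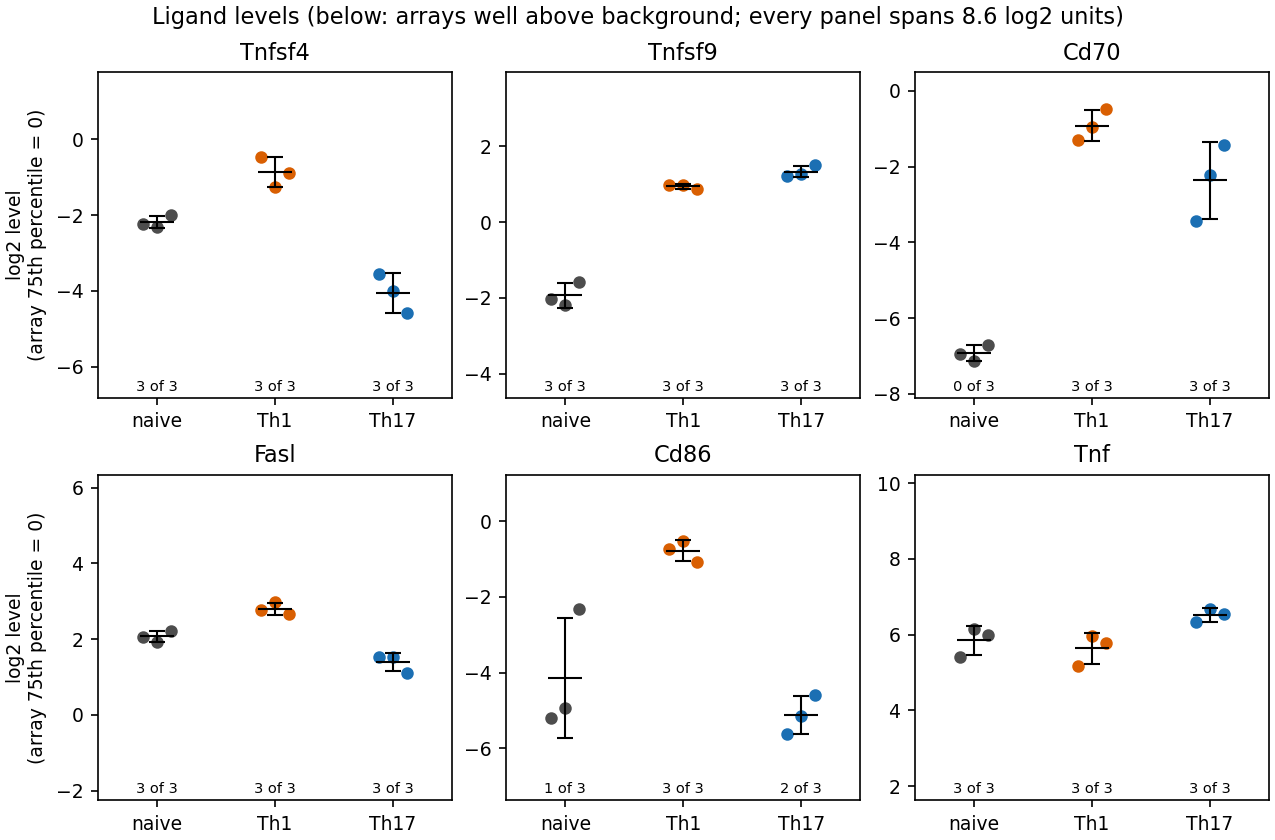
Log2 level of 6 ligands of the receptors on each array (points), with mean and SD of the 3 arrays of naive, Th1 and Th17 cells; the count of arrays well above background stands under each group, and each panel spans 8.6 log2 units. Tnfsf4, Fasl and Cd86 are highest in Th1 cells, Tnfsf9 is high in Th1 and Th17 cells, and Cd70 is above background in those groups only.

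Of 16 other immunoglobulin-type costimulatory and inhibitory receptor genes tested, 12 were called higher and 1 lower in Th1 cells, with a median of 0.73, where 23.5% of all genes were higher and 30.3% lower. In Th17 cells 9 were higher and 3 lower, with a median of 0.39, where 24.1% of all genes were higher and 30.1% lower. The 9 became 6 with slide as a random block and without naive replicate 2, naive replicate 3 or Th17 replicate 2, and 7 with slide as a fixed block. Pdcd1, the gene of the inhibitory receptor PD-1, rose by 4.31 and 4.04 (adjusted p = 2.57e-06 and 3.47e-06). Cd96, a receptor for nectin-family ligands, rose by 3.30 and 3.34 (adjusted p = 4.44e-06 and 4.17e-06). Crtam, an adhesion receptor of activated cytotoxic-type T cells, read 0.72 ± 0.11 in naive, 2.62 ± 0.13 in Th1 and 0.26 ± 0.08 in Th17 cells (SD, n = 3). It rose by 1.90 in Th1 cells (adjusted p = 4.04e-06).

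In Th17 against Th1 cells no gene of that list was called higher and 4 were lower, where 8.04% of all genes were higher and 7.69% lower. Among the 4 were Crtam (-2.36, adjusted p = 9.44e-06), the tetraspanin Cd81 (-1.53, adjusted p = 0.000965) and Slamf6 (-1.11, adjusted p = 0.0026). Slamf6, a self-binding receptor of lymphocytes, was still 1.33 higher in Th17 than in naive cells (adjusted p = 0.000205). Cd81 was lowest in Th17 cells, at -2.23 against naive (adjusted p = 2.61e-05).

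Of the 15 other TNF receptor genes tested among 21 listed, 2 were called higher and 8 lower in Th1 cells, with a median of -0.68, where 23.5% of all genes were higher and 30.3% lower. In Th17 cells 2 were higher and 7 lower, with a median of -0.44, where 24.1% of all genes were higher and 30.1% lower. With slide as a fixed block 1 was higher and 4 lower in Th17 cells. Relt, an orphan receptor of lymphoid tissue, was at -1.92 in Th1 and -2.30 in Th17 cells (adjusted p = 6.78e-06 and 2.82e-06). Tnfrsf12a, the receptor for TWEAK, was at -2.21 in Th1 (adjusted p = 5.66e-05) and -1.51 in Th17 cells (adjusted p = 0.000414; with slide as a fixed block, 0.0511). Tnfrsf26, a receptor of the same family, was at -2.75 in Th17 cells (adjusted p = 6.79e-05). Tnfrsf13b, the receptor TACI, rose by 1.11 and 1.35 (adjusted p = 0.000102 and 3.32e-05). Between Th17 and Th1 cells 1 was called higher and 4 lower, beside 8.04% and 7.69% of all genes. That count was not stable, at 1 and 0 with slide as a fixed block, 4 and 4 with slide as a random block, 1 and 2 without Th1 replicate 1 or Th17 replicate 1 and 2 and 2 without Th1 replicate 3. Of the genes named by rule there, Tnfrsf10b was at 0.81, Tnfrsf19 at -1.14 and Tnfrsf23 at -0.78, and all 3 calls ended on slide 2 alone (adjusted p = 0.187, 0.125 and 0.0948).

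Downstream of CD28 and ICOS, 23 genes listed for the phosphoinositide 3-kinase and antigen receptor arm were tested. Counted among them is Pdk1, a pyruvate dehydrogenase kinase and not a part of that arm, which was called lower in both groups. In Th1 cells 2 of the 23 were called higher and 13 lower, with a median of -0.40, beside 23.5% and 30.3% of all genes. In Th17 cells 3 were higher and 9 lower, with a median of -0.32, beside 24.1% and 30.1% of all genes, so the Th17 count was near the background. Lower calls in Th1 cells fell to 9 with quantile normalization and to 7 with slide as a fixed block, where Th17 cells had 5. Grap2, an adaptor that binds CD28 and SLP-76, was at -2.31 and -2.16 (adjusted p = 1.45e-05 and 1.95e-05). Pik3cg, the gamma catalytic subunit of phosphoinositide 3-kinase, rose by 2.56 and 2.29 (adjusted p = 2.83e-06 and 4.88e-06). Whether the gamma form acts downstream of CD28 or ICOS in these cells was not tested. The receptors Cd28 and Icos were therefore higher in groups in which Grap2 was lower.

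In Th17 against Th1 cells, 2 of the 23 were higher and 2 lower, beside 8.04% and 7.69% of all genes, so these counts were near the background. Tec, a non-receptor tyrosine kinase, read -0.91 ± 0.30 in naive, -3.20 ± 0.09 in Th1 and -0.39 ± 0.73 in Th17 cells (SD, n = 3), a rise of 2.81 from Th1 to Th17 (adjusted p = 0.000851). Pik3r1, the regulatory subunit, was at -0.83 (adjusted p = 0.00854) and Pik3ca at 0.50 (adjusted p = 0.0125), and with slide as a fixed block neither was called (adjusted p = 0.0654 and 0.0528).

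Of the 21 TRAF and NF-kappa-B genes, 5 were called higher and 9 lower in Th1 cells and 4 higher and 8 lower in Th17 cells, with medians of -0.11 and -0.08 that turned to 0.04 and 0.01 with the other 75th percentile. Of all genes 23.5% were higher and 30.3% lower in Th1 cells, and 24.1% were higher and 30.1% lower in Th17 cells, so these counts were near the background. With slide as a fixed block 3 were higher and 5 lower in Th17 cells. Tnfaip3, the inhibitor A20, was at -1.19 and -1.46 (adjusted p = 0.000163 and 5.11e-05). Traf4, an adaptor of the family, was at -1.19 and -1.93 (adjusted p = 0.000451 and 3.07e-05). Ikbkg, the regulatory subunit NEMO, rose by 1.57 and 1.74 (adjusted p = 0.000307 and 0.000164). In Th17 relative to Th1 cells, Nfkb1 was at 0.54, Traf4 at -0.74 and Rel at -0.58 (adjusted p = 0.00967, 0.0178 and 0.0211), and none was called on slide 2 alone (adjusted p = 0.0932, 0.0707 and 0.174).

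Of 13 genes of the death domain arm tested, 1 was called higher and 8 lower in Th1 cells, with a median of -0.69, beside 23.5% and 30.3% of all genes. In Th17 cells 2 were higher and 9 lower, with a median of -0.63, beside 24.1% and 30.1% of all genes. Under a fixed slide block 6 were lower in Th1 and 5 in Th17 cells. Ripk3, the kinase of necroptosis, was at -1.68 and -1.79 (adjusted p = 3.36e-05 and 2.17e-05). Bid, which carries the death receptor signal to mitochondria, was at -1.07 and -1.58 (adjusted p = 0.000155 and 1.8e-05). Fcmr, an IgM receptor once described as an inhibitor of Fas, went against the list. Under the main background subtraction Fcmr was at least 11.1-fold higher in Th1 and at least 6.39-fold higher in Th17 cells (adjusted p = 3.86e-06 and 9.5e-06). Its smallest changes over the alternatives were 1.6 and 1.27 (log2), and 1 alternative lost the Th17 call. For Th17 against Th1 cells Bid was at -0.51 (adjusted p = 0.0232). Bid was no longer called when Th1 replicate 2 (adjusted p = 0.0787), Th1 replicate 3 (0.0619), Th17 replicate 1 (0.065) or Th17 replicate 2 (0.0614) was left out.

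**Figure D5:**
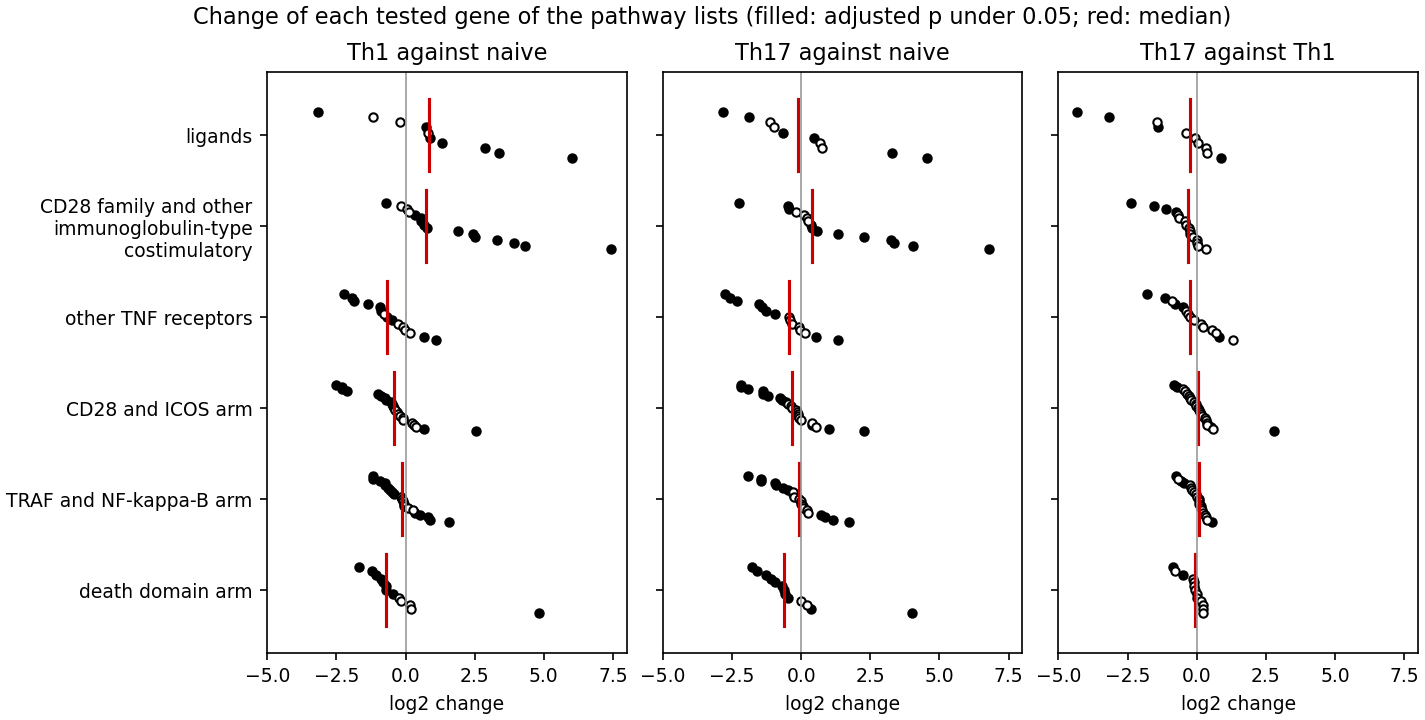
Log2 change of each tested gene of the 6 pathway lists in the 3 comparisons, filled where the limma adjusted p was below 0.05, with the list's median as a red line. In both comparisons with naive cells the medians of the immunoglobulin-type list (0.73 and 0.39) lie above 0, and those of the other TNF receptors (-0.68 and -0.44) and of the death domain arm (-0.69 and -0.63) lie below it.

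For each receptor the genes with the most alike pattern were taken as those with the smallest root mean square difference of centred log2 levels over the 9 arrays. For Icos these were Adh4 and Atxn1 (0.23 and 0.28), and for Tnfrsf4 Stat4 and Pik3cg (0.18 and 0.19). For Cd27 they were Tacc2 and Ccr7 (0.26 and 0.31), with Ccr7, a homing receptor of naive cells, at -1.51 in Th1 and -3.76 in Th17 cells. For Fas they were Ss18l1 and Fam160a2 (both 0.15), and for Tnfrsf18 Gzmm and Eed (0.15 and 0.16). For Cd28 they were Rtl8b and Rtl8c (0.08 and 0.10), and for Tnfrsf25 Repin1 and Gimap8 (0.13 and 0.14). The flatter profiles of Tnfrsf9 (brighter probe) and Tnfrsf1b gave Gxylt2 and Kcna4 (0.03 and 0.04) and Miox and Bcl7b (0.12 and 0.13). A small distance describes 9 arrays in 3 groups and says nothing of shared control.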

How the data were processed

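RNA from 9 sorted samples (0.5 µg each) was measured on 1-colour Agilent arrays. The deposited scanner files give spot intensity from Feature Extraction, version 10.7.3.1 per the file headers (10.5 per the submitters' processing notes), background-subtracted by that program. A table of log2 values deposited by the authors, whose centring is not stated, was used as an alternative only. Its differences between arrays followed the scanner values (r = 0.9999 over 23216 probes).

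Outlier and control spots were left out, spots of a probe averaged, log2 of the intensity taken and each array's 75th percentile subtracted. Probes well above background on at least 3 arrays were kept, and the brightest probe stood for a gene. All 3 groups entered 1 limma fit (lmFit and eBayes, limma 3.58.1, R 4.3.3), with two-sided p-values adjusted by Benjamini-Hochberg over 19072 genes. Symbols came through RefSeq accessions for 27234 of 39429 probes. In simulated data for Th1 against naive cells on 19072 genes, 100 genes were changed by 1 log2 unit and 100 by 2, with independent noise. Of these, 67 percent and 90 percent were recovered. In the measured comparison 53.9% of genes were called, so these rates do not give its power.

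Named genes were all 9 receptors and all their probes, every ligand, the neighbours in RefSeq order, Cd3e, Cd4, Foxp3, up to 3 called genes of each pathway list in each comparison by smallest p, and the 2 most alike genes. A few genes that this rule names are not reported here. The receptors, lists and markers were chosen with earlier results of these data known. Alternatives covered background correction, normalization, filters, probes, slide, replicate number, samples in the fit and left-out arrays. Precision is limited by 3 arrays a group.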

Additional observations from a re-analysis of the deposited data

How the results depend on the processing

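With normexp background correction 2, 3 and 1 receptors were called for Th1 and for Th17 against naive cells and for Th17 against Th1 cells, and 1258, 1220 and 179 genes. A single spot of Th1 replicate 2 had a local background of 168530 against an array median of 37. With such backgrounds replaced, an alternative chosen after seeing the data, the receptor counts were 5, 7 and 3, and 8541, 8676 and 2353 genes were called. Genes called fell to 6528 on slide 1 alone (Th1 against naive, with a single Th1 array assumed to vary like the naive arrays), to 1404 on slide 2 alone (Th17 against Th1) and to 5213 with slide as a fixed block (Th17 against naive). On slide 2 alone 2 receptors were called. Leaving out 1 array gave 5, 7 and 3 receptors each time, and 8642 to 9687, 8816 to 10163 and 1917 to 2525 genes (1917 without Th1 replicate 2). The cause of these shifts was not tested.

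Of 513 receptor values under the alternatives, 474 kept their sign and their side of the threshold, 27 changed sign, 11 kept their sign and lost a call, and 1 kept its sign and gained a call. All 27 were of receptors not called in that comparison, and 4 of them, the Tnfrsf9 values against naive cells by the mean of probes and by the dimmer probe, were then called. In Th1 against naive cells with normexp, Tnfrsf1b was at -0.38 and Tnfrsf25 at -0.30, and of other named genes Icosl was at 0.29 and Nfkb1 at -0.32. Tnfrsf18 was at 0.09 with quantile normalization and 0.04 with the other 75th percentile, and Tnfrsf1b ranged from -0.12 to 0.16 without single arrays (-0.01, -0.07 and -0.12 without naive replicate 1, naive replicate 3 and Th1 replicate 2). Tnfrsf9 was at 1.89 (Th1) and 1.76 (Th17) by the mean of its probes, and at 3.98 and 3.69 by the dimmer one. In Th17 against naive cells Tnfrsf1b was at -0.05 with slide as a fixed block and ranged from -0.05 to 0.34 without single arrays (lowest without Th17 replicate 3). In Th17 against Th1 cells with normexp, Cd28 was at 0.36, Tnfrsf4 at 0.50, Cd3e at 0.09 and Cd4 at 0.00. There Tnfrsf9 was at -0.01 with quantile normalization, 0.00 with the other 75th percentile, -0.12 by the mean of probes, -0.29 by the dimmer probe, -0.11 with slide as a fixed block or on slide 2 alone and from -0.06 to 0.11 without single arrays (lowest without Th17 replicate 3). Tnfrsf1b was at -0.07 with slide as a fixed block, on slide 2 alone and without Th17 replicate 3, at -0.02 without Th1 replicate 3 and at most at 0.32 without single arrays. Icos was at -0.07 without Th17 replicate 1.

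Samples share replicate numbers across groups, but same-numbered arrays deviated together only weakly (r from -0.007 to 0.175 over 9 pairs, against -0.197 to 0.065 over 18 other pairs), so the numbers were not taken as a pairing. With the replicate number as a block 6, 7 and 3 receptors and 10167, 10334 and 3006 genes were called. The added receptor was Tnfrsf25 in Th1 against naive cells (0.37, adjusted p = 0.0421).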

Other observations

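Genes next to a receptor in the RefSeq order moved in several cases with values not given above. Dhrs3, a retinaldehyde reductase beside Tnfrsf1b, rose by 2.90 in Th1 and 3.95 in Th17 against naive cells (limma adjusted p = 3.19e-05 and 6.02e-06), while Tnfrsf1b was at 0.02 and 0.14. Tapbpl, a peptide-editing chaperone relative beside Cd27, was at -1.90 and -2.41 (adjusted p = 3.09e-05 and 8.48e-06), and between Th17 and Th1 cells at -0.51 (adjusted p = 0.0623), where Cd27 was at -2.0. Sdf4, a calcium-binding protein beside Tnfrsf4, rose by 1.58 and 1.57 (adjusted p = 3.51e-05 and 3.28e-05). Raph1, an actin regulator beside Cd28, rose by 1.76 and 2.07 (adjusted p = 2.11e-05 and 8.65e-06). Park7, beside Tnfrsf9, rose by 0.71 and 0.85 (adjusted p = 0.00576 and 0.00225). Acta2, beside Fas, was called in no comparison (adjusted p = 0.0648, 0.209 and 0.589).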
